A study of Mus musculus with 4 samples.

Results

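The genes examined here encode 7 chains of the common gamma chain family of cytokine receptors: Il7r, Il2rb, Il2rg, Il4ra, Il21r, Il9r and Il15ra. They were taken by symbol from the authors' deposited table of 23996 genes, where each had a row of its own, and all 7 were among the 11569 genes the authors tested. The cells were follicular helper T (TFH) cells, a kind of CD4 T cell that aids B cells inside germinal centres, sorted from mouse spleen by surface CD4, CD44, CXCR5 and PD-1 after immunization with ovalbumin in alum for 7 days. Both groups carried floxed Etv5 (Etv5f/f). The group called WT had no Cre, and the conditional knockout (Etv5 cKO) also carried Cd4-Cre, which deletes floxed sequence in all cells of the T lineage that have passed through the CD4-expressing stage of the thymus, regulatory and CD8 T cells included. The sources used here give no age and no number of mice, and no group with Cd4-Cre alone was analysed here. Each genotype had 2 libraries.

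The shared chain, encoded by Il2rg, is the common gamma subunit of the receptors for interleukin-2, interleukin-4, interleukin-7, interleukin-9, interleukin-15 and interleukin-21. It pairs with a private chain that gives each receptor its ligand, and Il2rb serves both the interleukin-2 and the interleukin-15 receptor. JAK1 sits on the private chains and JAK3 on the shared chain. The kinases activate mainly STAT5 below interleukin-2, interleukin-7, interleukin-9 and interleukin-15, STAT6 below interleukin-4 and STAT3 below interleukin-21. In helper T cells interleukin-2 signalling through STAT5 is known to hold back TFH differentiation, interleukin-21 is a product and a growth signal of TFH cells, and the interleukin-7 receptor is high on naive and memory T cells and is turned down after activation.

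The authors' deposited table holds 1 FPKM value (fragments relative to transcript length and to all mapped fragments) for a gene in each genotype, covering its 2 libraries together. No value per library, no spread between libraries and no sequencing depth could therefore be given. The error of a change comes from the authors' Cuffdiff test alone, and since the labels do not say whether the libraries came from separate mice, that test may measure technical spread. The authors' deposited table gave Etv5 5.24 FPKM in WT against 2.12 in Etv5 cKO, with a log2 change of -1.31 (Cuffdiff adjusted p = 0.0181). This whole-gene value does not separate transcripts that lack the floxed exons. Transcripts of 3 of the sort markers were present at high levels: Cd4, at 460 and 470 FPKM in WT and cKO, Cxcr5 at 183 and 158 FPKM, and Pdcd1, which encodes PD-1, at 173 and 154 FPKM. The genotypes also differed in sex-linked transcripts. The Y-linked genes Ddx3y (21.8 and 8.60 FPKM), Eif2s3y (27.4 and 11.8 FPKM), Kdm5d (8.80 and 3.45 FPKM) and Uty (5.41 and 2.23 FPKM) were each lower in the cKO libraries by the authors' Cuffdiff test (adjusted p = 0.0181), and Xist stood at 110 and 172 FPKM. Of the receptor genes, only Il2rg is X-linked. The part of these differences in the results below was not tested.

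On the mm10 build the genes lie on 5 chromosomes, and all are protein coding in the GENCODE vM21 annotation of the same assembly. Il7r spans chr15:9506159-9529876 and Il2rb chr15:78480549-78495066, both on the minus strand. Il4ra (chr7:125552282-125579474) and Il21r (chr7:125603429-125633570) are neighbours on the plus strand with 23954 bases between them. Il15ra (chr2:11705293-11733985, plus strand) lies 12098 bases from Il2ra, which encodes the interleukin-2 receptor alpha chain. Il9r spans chr11:32188997-32200279 and Il2rg chrX:101264387-101268206, both on the minus strand. An annotated same-strand transcript unit, Gm20489, overlaps Il2rg, and an antisense gene, Gm44876, overlaps Il4ra. Reads shared with Gm20489 cannot be told apart by strand in the Il2rg value. Those shared with Gm44876 cannot be told apart in the Il4ra value, because the strand setting of the counting is not given in the sources used here.

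Promoter windows from RefSeq (GRCm38.p6, from 250 bases before to 50 bases after an annotated gene start) were matched to 6 of the 7 genes. Il2rb had no entry. The annotated start was the deposited one for Il7r, Il21r, Il9r and the first start of Il15ra, and lay 49 bases upstream of it for Il2rg and 11 bases upstream for Il4ra. In GENCODE vM21 the gene Il7r begins further upstream, at chr15:9530176, so by that annotation its whole window lies inside the gene. The windows of Il7r, the gene that passed the test, of Il2rg, the shared chain, and of Il9r are printed. They were chosen because the first 2 hold CNGGAAG, the string searched here for ETS factors, the family of Etv5, and the third does not. They are written from 5′ to 3′ on the strand of the gene, with every match to CNGGAAG on either strand in capitals.
Il7r, chr15:9529827-9530126, minus strand: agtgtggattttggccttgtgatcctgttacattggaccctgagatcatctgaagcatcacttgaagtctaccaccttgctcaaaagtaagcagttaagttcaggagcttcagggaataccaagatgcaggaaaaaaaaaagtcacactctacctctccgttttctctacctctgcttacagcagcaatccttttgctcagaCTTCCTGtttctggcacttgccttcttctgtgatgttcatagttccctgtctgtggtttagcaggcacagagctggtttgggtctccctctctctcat
Il2rg, chrX:101268206-101268505, minus strand: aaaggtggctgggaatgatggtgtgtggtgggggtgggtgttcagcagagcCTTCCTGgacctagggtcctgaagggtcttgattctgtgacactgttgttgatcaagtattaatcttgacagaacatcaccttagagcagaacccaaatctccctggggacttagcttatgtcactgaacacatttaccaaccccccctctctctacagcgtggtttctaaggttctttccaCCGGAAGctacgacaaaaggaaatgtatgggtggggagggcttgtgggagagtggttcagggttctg
Il9r, chr11:32200230-32200529, minus strand: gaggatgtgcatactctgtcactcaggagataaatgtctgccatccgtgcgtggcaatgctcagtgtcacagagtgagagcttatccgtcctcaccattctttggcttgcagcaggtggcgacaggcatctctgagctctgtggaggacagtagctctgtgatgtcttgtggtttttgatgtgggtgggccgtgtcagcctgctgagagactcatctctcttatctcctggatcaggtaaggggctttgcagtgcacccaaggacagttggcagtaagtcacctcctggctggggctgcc

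The 4 motifs searched on both strands were those of ETS factors (CNGGAAG), STAT dimers (TTCNNNGAA), FOXO factors (TGTTTAC) and RUNX factors (TGTGGTT), chosen with these window sequences already in view. The ETS letters stood 48 bases before the start of Il7r, 17 and 199 bases before that of Il2rg and 104 bases before the first start of Il15ra, where a second match lay 42 bases past the start. That makes 3 of 6 genes with a window, beside 34.7% of the 27025 genes in the table of windows. The Il7r window also held the STAT letters 142 bases before the start and the RUNX letters from 3 bases past it, and these occur in windows of 9.55% and 6.09% of genes. Il9r had the RUNX letters 83 bases before its start, and Il21r the FOXO letters, found in 4.05% of genes, 38 bases before its start. The window of Il4ra and the window at the second start of Il15ra held none of the 4. Shorter or looser forms of these motifs were not searched. No match overlapped another. These matches describe letters and say nothing of binding.

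**Figure D1:**
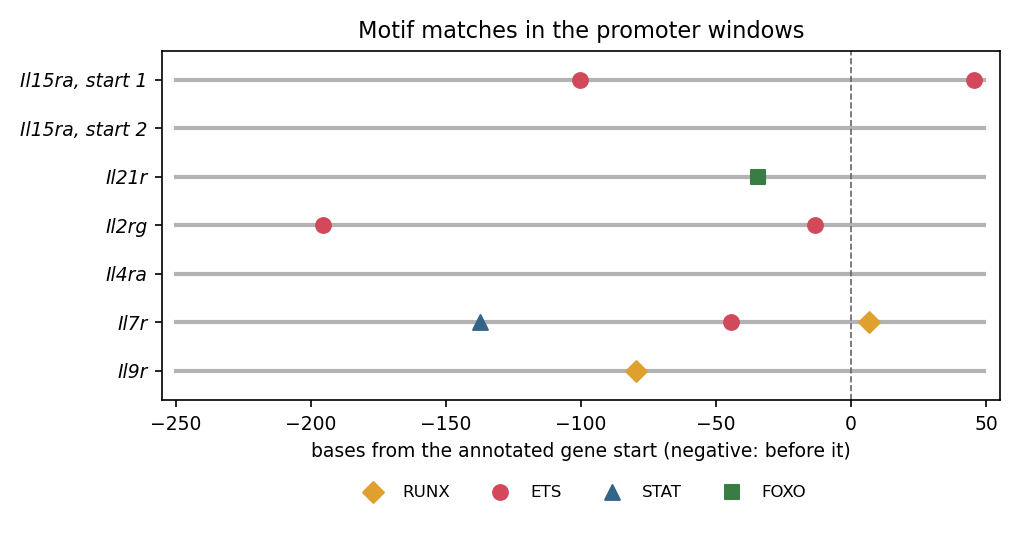
Each grey line is a promoter window of 300 bases, the x axis gives bases from the annotated gene start (dashed line), and each symbol marks the centre of a motif match by its kind. Il7r is the one gene here with ETS, STAT and RUNX letters in the same window, while Il4ra has none.

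Of the 7 genes, Il7r rose in Etv5 cKO and the other 6 did not pass the test. Across all genes tested, 0.346% passed at a Cuffdiff adjusted p below 0.05, 0.104% as higher and 0.242% as lower in Etv5 cKO. With 7 genes, a single call is a statement about Il7r and not about the family. Il9r had the next largest difference, followed by Il21r in the other direction, and the values of the remaining 4 genes lay within 0.13 of 0 on the log2 scale. The median log2 fold change of the 7 genes was 0.07, with 4 higher and 3 lower, beside a median of -0.0033 over all tested genes, 51.1% of which were lower.

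Il7r encodes the interleukin-7 receptor alpha chain, which with the shared chain binds interleukin-7 and with Crlf2 binds TSLP. The authors' deposited table gave it a level of 38.8 FPKM in WT against 62.8 in Etv5 cKO. The cKO level was thus 1.62 times the WT level, a difference of 0.69 on the log2 scale. The approximate 95% interval of that difference was 0.34 to 1.04, drawn from the p of 1e-04 that the authors' Cuffdiff test gave (adjusted p = 0.0351). Taken over every listed gene, untested ones included, the adjusted p was 0.0727 and the call was lost. A larger rise was found in 197 of the 11569 tested genes, and in 12 of the 6966 tested genes whose mean reached 10 FPKM, so the rise of Il7r was large for a gene of its level.

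Il9r encodes the interleukin-9 receptor alpha chain, known from mast cells, memory B cells and some T cells. The authors' deposited table gave it 38.7 FPKM in WT against 51.1 in Etv5 cKO. The ratio was 1.32, or 0.40 on the log2 scale with an interval of 0.06 to 0.74 (unadjusted p = 0.0218 and adjusted p = 0.999 in the authors' Cuffdiff test). Il9r therefore missed the threshold over all genes although its unadjusted p was below 0.05, as it was for 2.4% of tested genes, 1.11% with a higher value in Etv5 cKO. Il7r and Il9r were the 2 receptor genes below that unadjusted level, both with higher values in Etv5 cKO. In WT the level of Il7r was 0.254% above that of Il9r, and in Etv5 cKO the ratio of Il7r to Il9r was 1.23.

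**Figure D2:**
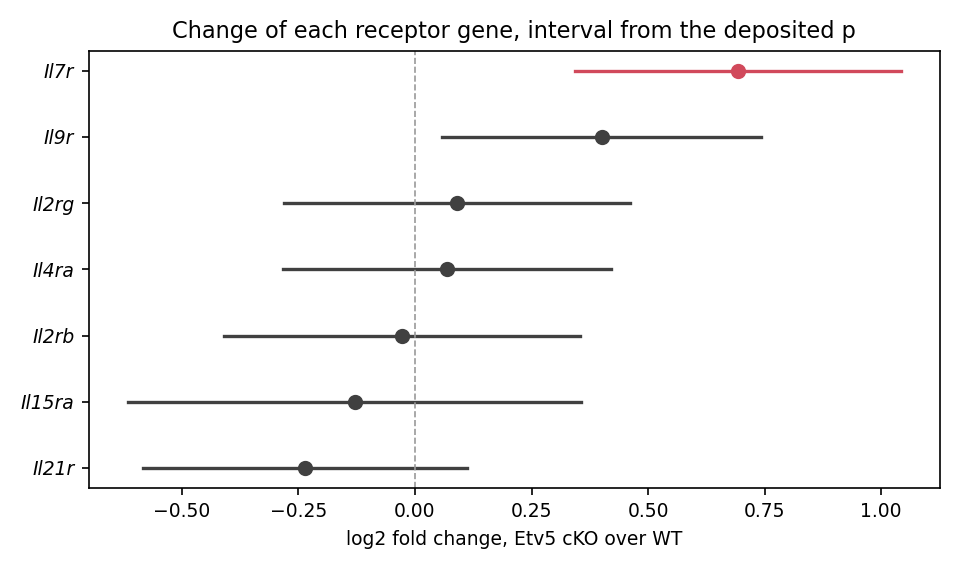
Points give the deposited log2 fold change (Etv5 cKO over WT) of each receptor gene and bars the approximate 95% interval obtained from the deposited p. Il7r, in red, passed at an adjusted p below 0.05, and the bars of Il7r and Il9r lie to the right of 0 while the other 5 cross it. Bars drawn from the deposited test score would be wider. That of Il9r would then cross 0, and those of Il7r and Il21r would overlap.

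Il21r, the private chain of the interleukin-21 receptor, had the lowest fold change. The authors' deposited table gave it 89.3 FPKM in WT against 75.8 in Etv5 cKO. On the log2 scale the difference was -0.24 with an interval of -0.58 to 0.11 (the authors' Cuffdiff adjusted p = 0.999). The intervals drawn from the deposited p did not overlap for Il7r and Il21r, the highest and lowest fold changes, but did for Il7r and Il9r. Intervals drawn from the deposited test score would overlap for both pairs. A difference between the changes of these genes was not tested. The level of Il21r was 2.30 times that of Il7r in WT and 1.21 times that of Il7r in Etv5 cKO. The ligand Il21, itself a TFH cytokine, stood at 66.1 and 49.7 FPKM in WT and cKO in the authors' deposited table (unadjusted p = 0.0197, Cuffdiff adjusted p = 0.999).

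The shared chain Il2rg had the highest level of the 7. The authors' deposited table gave it 411 FPKM in WT against 438 in Etv5 cKO. Its log2 fold change was 0.09, with an interval of -0.28 to 0.46 (the authors' Cuffdiff adjusted p = 0.999). A rise beyond 1.38-fold and a decrease below 0.823 of the WT level lay outside this interval. It was drawn from the deposited p, and an interval drawn from the deposited test score would be wider. Il2rg made up 51.3% of the summed FPKM of the 7 genes in WT and 51.6% in Etv5 cKO. Il2rb, the signalling chain shared by the interleukin-2 and interleukin-15 receptors, followed at 201 and 198 FPKM. Its log2 fold change was -0.03 with an interval of -0.41 to 0.35 (the authors' Cuffdiff adjusted p = 0.999). Both chains that serve several cytokines thus had values within 0.1 of 0 on the log2 scale, with intervals on the ratio of cKO to WT from 0.823 to 1.38 for Il2rg and from 0.753 to 1.28 for Il2rb.

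Il4ra, the ligand-binding chain for interleukin-4 and part of the interleukin-13 receptor, measured 15.2 FPKM in WT against 15.9 in Etv5 cKO. The log2 change that the authors' deposited table gives it was 0.07 (interval -0.28 to 0.42, Cuffdiff adjusted p = 0.999). Il15ra, the sushi-domain chain that captures interleukin-15 and presents it to cells with Il2rb and the shared chain, was the lowest of the 7 at 7.46 and 6.82 FPKM. Its log2 fold change was -0.13 with the widest interval of the 7, -0.62 to 0.36 (the authors' Cuffdiff adjusted p = 0.999).

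**Figure D3:**
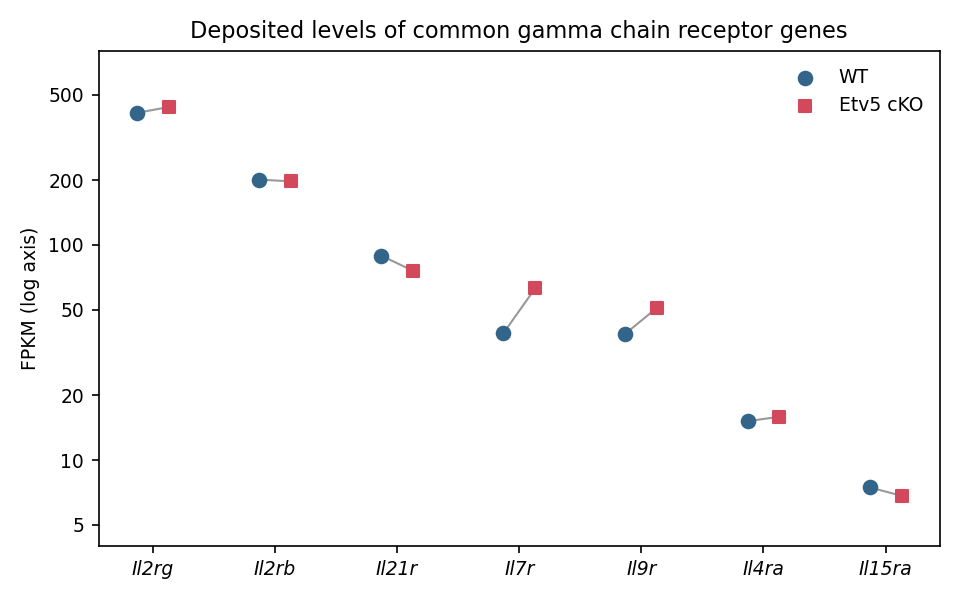
Points are the deposited FPKM value of each receptor gene in WT (circles) and Etv5 cKO (squares) on a log axis, 1 value per genotype over 2 libraries and therefore without error bars. The order runs from Il2rg at 411 FPKM to Il15ra at 7.46 FPKM in WT, and the steepest line is that of Il7r.

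The order of the levels was the same in both genotypes: Il2rg, Il2rb, Il21r, Il7r, Il9r, Il4ra and Il15ra. FPKM is scaled to transcript length, so levels of different genes can be set side by side, but without a spread over libraries no test between neighbours was possible. Most steps in that order were at least 2-fold. The exceptions were Il7r and Il9r in WT, which differed by 0.254%, and, in Etv5 cKO, Il21r and Il7r (ratio 1.21) and Il7r and Il9r (ratio 1.23). The shared chain exceeded every private chain. In WT its level was 10.6 times that of Il7r, 10.6 times that of Il9r, 4.61 times that of Il21r, 27.1 times that of Il4ra and 55.1 times that of Il15ra. In Etv5 cKO the corresponding ratios were 6.97 for Il7r, 8.56 for Il9r, 5.77 for Il21r, 27.5 for Il4ra and 64.2 for Il15ra. Il7r made up 4.84% of the summed FPKM of the 7 genes in WT and 7.41% in Etv5 cKO, and Il21r 11.1% and 8.94%.

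**Figure D4:**
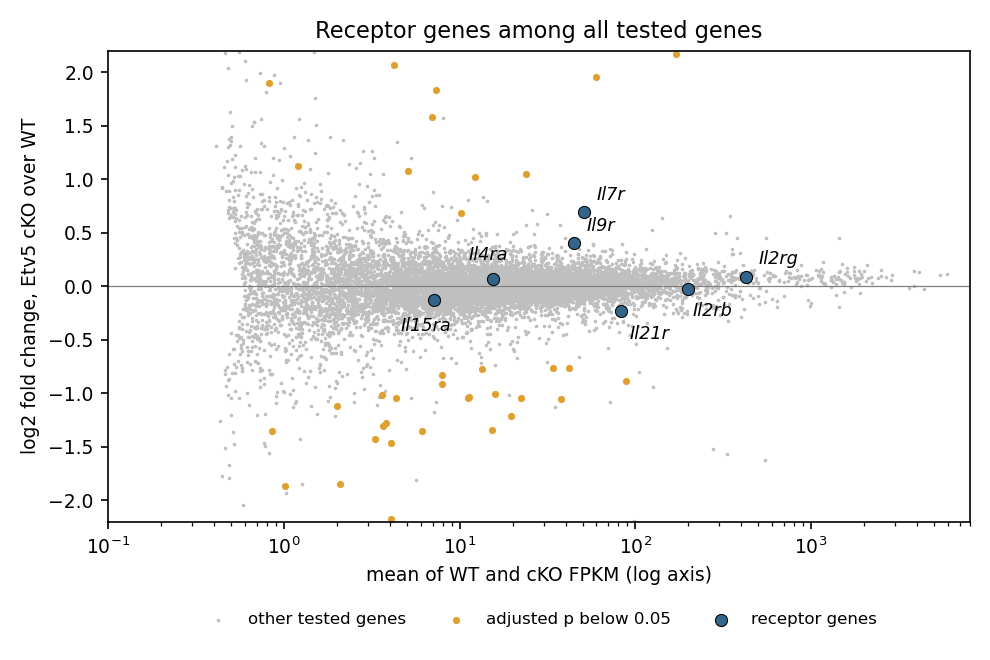
Each grey point is a tested gene, at its mean FPKM on a log axis and its log2 fold change (Etv5 cKO over WT), with genes below an adjusted p of 0.05 in yellow and the receptor genes in blue. Il7r lies at the upper edge of genes of its level, Il9r just below it, and the other 5 within the main band; 14 tested genes beyond 2.2 on the log2 scale are not drawn.

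Chains that complete these receptors were measured in the same table. Il2ra, the alpha chain that raises the affinity for interleukin-2, stood at 21.8 and 23.1 FPKM in WT and cKO, with 9.25 and 8.54 times as much Il2rb. Crlf2, the partner of Il7r in the TSLP receptor, stood at 48.0 and 49.5 FPKM, so Il7r was at 0.809 of the Crlf2 level in WT and at 1.27 times that level in cKO. Il13ra1, which joins Il4ra in the second type of interleukin-4 receptor, was low at 1.27 and 0.775 FPKM. None of these 3 tested chains passed the authors' Cuffdiff test (adjusted p = 0.999 each), and Il13ra2 was listed at 0 in both genotypes.

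Among the 8 ligand genes, 5 were tested and 0 passed. Il4 stood at 52.1 and 56.6 FPKM in WT and cKO in the authors' deposited table, and Il2 at 2.49 and 2.90 FPKM. Il13 and Il15 lay near 1 FPKM, at 1.17 and 2.07 FPKM for Il13 and 0.628 and 0.345 FPKM for Il15. The genes Il7, Il9 and Tslp were not tested and stood below 0.13 FPKM in both genotypes, Il9 being listed at 0. The sorted cells thus held transcripts of Il4 and Il21 at about 50 FPKM or more and hardly any of Il7 or Il9, the ligands of the 2 receptors with the largest positive differences.

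All 9 tested kinases and STATs had slightly lower values in Etv5 cKO, with log2 fold changes from -0.10 to -0.03, a median of -0.05, and 0 passing the Cuffdiff test or an unadjusted p of 0.05. JAK1 and JAK3, the kinases of these receptors, had transcript levels of 158 and 155 FPKM for Jak1 and of 125 and 123 FPKM for Jak3 in WT and cKO. Stat5a stood at 26.2 and 25.3 FPKM and Stat5b at 62.4 and 58.1 FPKM. Stat6 stood at 68.0 and 64.8 FPKM and Stat3 at 66.6 and 64.2 FPKM. In the same libraries 6 of the 7 tested T cell markers were lower (median log2 change -0.08), and the part of this in the kinase and STAT values was not tested.

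Feedback inhibitors and targets of the pathway did not pass either. Of 12 tested inhibitors 4 were higher and 8 lower (median log2 fold change -0.01), and of 12 tested STAT5 targets 5 were higher and 7 lower (median -0.02), with 0 passing the Cuffdiff test and 0 below an unadjusted p of 0.05 in either list. Cish, an inhibitor and a classic STAT5 target that belongs to both lists, had the highest fold change of each, where the authors' deposited table lists 19.7 FPKM for WT against 24.7 for cKO (log2 change 0.33, unadjusted p = 0.0873). The inhibitor Socs1 stood at 32.7 and 32.5 FPKM, the survival factor Bcl2, a target of interleukin-7, at 13.1 and 12.9 FPKM, and Mcl1, another survival factor, at 184 and 180 FPKM. Prdm1, which encodes Blimp-1, the antagonist of the TFH programme, stood at 6.91 and 6.05 FPKM. None of the 7 lists of pathway genes other than the receptors, 67 genes with 62 tested, held a gene that passed over all genes, and Il21 was the 1 gene below an unadjusted p of 0.05.

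Genes known to control Il7r transcription were compared next to the rise of Il7r itself. Of 12 tested regulators 5 were higher and 7 lower (median log2 change -0.02), and 0 passed the Cuffdiff test. Foxo1, an activator of Il7r in T cells, stood at 61.0 and 60.4 FPKM in WT and cKO in the authors' deposited table. Gabpa, the ETS factor known to act at the Il7r promoter, stood at 28.9 and 26.9 FPKM, and Ets1, the most abundant gene of the list, at 516 and 509 FPKM. Runx1 stood at 33.0 and 33.4 FPKM, and Gfi1, a repressor of Il7r, at 24.8 and 22.7 FPKM. Spi1, an ETS factor of myeloid and B cells, had the highest fold change at a low level (1.30 and 2.19 FPKM, log2 change 0.76, unadjusted p = 0.0808 in the authors' test).

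**Figure D5:**
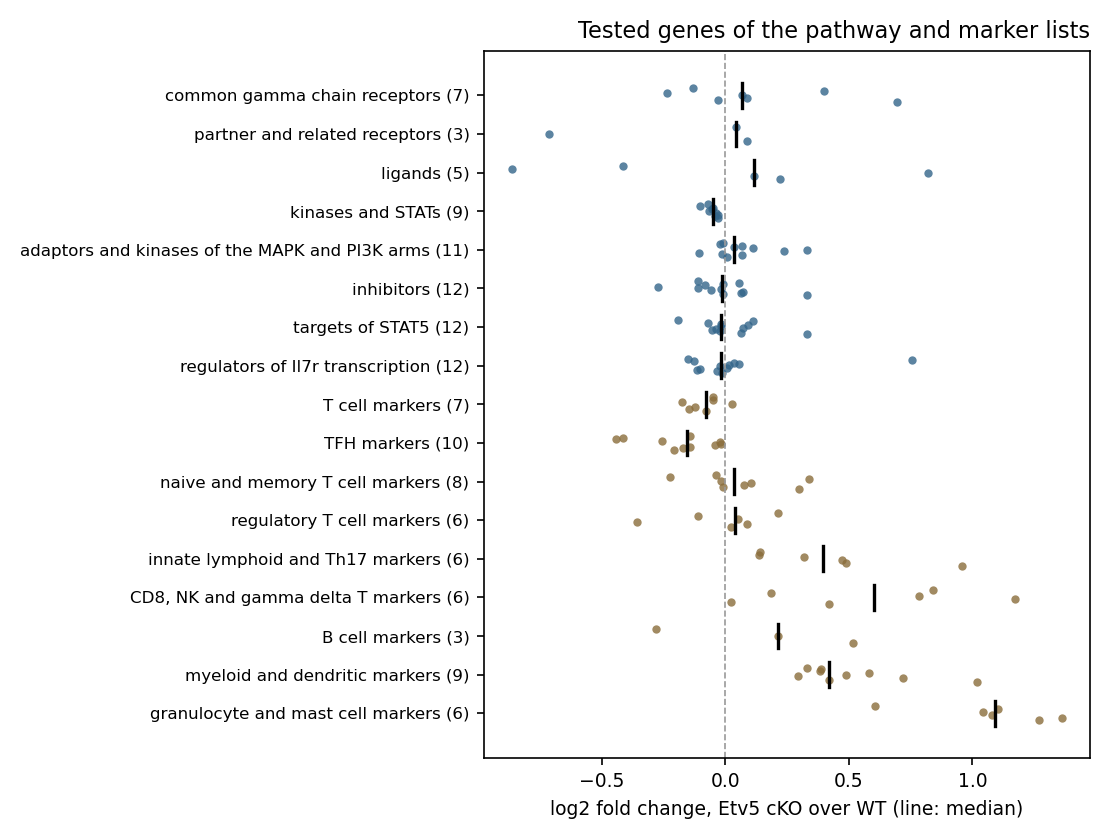
Each point is the log2 fold change (Etv5 cKO over WT) of a tested gene, black lines are list medians, and the number of tested genes stands after each list name. Pathway lists (blue) centre near 0, with the kinases and STATs all slightly below it, while marker lists of myeloid, granulocyte and innate lymphoid cells (brown) lie to the right; the erythroid list, whose median was 2.01, is not drawn.

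Several cell types other than TFH cells carry Il7r, and the levels of their markers in the same libraries are given here. In bulk samples a change in the share of a cell type and a change in RNA per cell cannot be told apart. All 6 tested innate lymphoid and Th17 markers, cells known for high Il7r, had higher values in Etv5 cKO (median log2 fold change 0.39, 0 passing, 2 below an unadjusted p of 0.05), and the summed FPKM of all 8 listed markers, untested ones included, was 183 in WT and 210 in cKO. Among them Il1r1 stood at 13.6 and 19.1 FPKM, while Il17a (0.134 and 0.104 FPKM) and Il23r (0.306 and 0.363 FPKM) were close to 0. The 8 naive and memory markers split into 4 higher and 4 lower (median 0.03), with a summed FPKM of 598 in both genotypes. Ccr7, a homing receptor of these resting cells, stood at 26.3 and 26.2 FPKM. The part of these cells in the Il7r value was not tested.

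Markers of cells outside the sort gate mostly had higher values too. All 9 tested myeloid and dendritic markers were higher, 1 of them, Lyz2, by the Cuffdiff test, and the summed FPKM of all 10 listed markers, untested ones included as in the sums that follow, was 106 in WT and 150 in cKO. The 6 tested granulocyte and mast cell markers were all higher, 1 of them (Mpo) by the Cuffdiff test, and all 7 listed ones had summed FPKM of 10.8 and 22.8. Of 8 erythroid rows 7 were higher and 5 passed, with summed FPKM of 140 and 614. The 6 tested CD8, NK and gamma delta T markers were all higher, with 0 passing, and the 7 listed ones had summed FPKM of 20.3 and 25.9. Cd8a, which was not tested, was at 0.0519 and 0.0800 FPKM. The 7 listed B cell markers, which bear on Il9r, Il4ra and Il21r, had summed FPKM of 19.2 and 18.4, with Ms4a1 at 0.204 and 0.469 FPKM. All 10 TFH markers had lower values, with a median log2 change of -0.16 and 0 passing. The sort markers included none particular to regulatory T cells, so the gate need not leave these cells out. Of 6 regulatory T cell markers 4 were higher and 2 lower (median 0.04), with 0 passing. Foxp3 stood at 65.3 and 66.3 FPKM in WT and cKO, and Ikzf2 at 102 and 79.9 FPKM. The part of these cells in the values of the receptor genes was not tested.

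The genes closest to Il7r in level in both genotypes, by Euclidean distance on the log2 FPKM scale over the 2 genotypes, were Ndufs5, a subunit of respiratory complex I (42.2 and 53.6 FPKM, distance 0.257), Tmem160 (47.1 and 59.7 FPKM, distance 0.288) and Pycard, an inflammasome adaptor (45.0 and 54.5 FPKM, distance 0.295). Each had a higher value in Etv5 cKO, per the authors' deposited table. That direction was fixed by the choice of genes near Il7r in both genotypes and is not a result. None passed the Cuffdiff test that the authors ran (adjusted p = 0.999 each). With 2 values per gene this likeness is a description only.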

How the data were processed

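Per the labels' protocols, 4 libraries were made with a stranded mRNA kit. TopHat2 (2.0.13), the test program Cuffdiff (version 2.2.0) and the build mm10 are named in the submitters' processing notes; annotation, strand setting and library scaling are not stated there or in the headers. Per the file headers, the deposited table has 1 FPKM value for a gene in each genotype, the authors' log2 fold change (no pseudocount), their fold ratio, a test score, and a p-value with its adjusted p-value. FPKM values carry no counts, so depth is unknown. One emptied line was not analysed here.

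The planned tests on values per library could not be fitted, so the authors' Cuffdiff test was used, called at an adjusted p below 0.05. Benjamini-Hochberg adjustment over the 11569 tested genes gave the deposited adjusted p within 8.4e-05. Approximate 95% intervals were the log2 fold change ± 1.96 times its size divided by the normal quantile of the deposited two-sided p. They rest on that p alone, whose smallest value is 5e-05. Over 9337 genes the deposited score was a nearly constant fraction of this quantile (median 0.706, quartiles 0.699 and 0.715). Intervals drawn from the score in place of the quantile would therefore be wider.

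The receptor genes and the 18 lists were chosen with earlier results of these data known. Of 154 symbols 150 were found. The naming rule took the receptor genes, pathway genes below an unadjusted p of 0.05, 9 core pathway genes, Etv5 and the 3 genes nearest to Il7r among 10743; all other genes were named after their values were seen. Starts are 1-based (deposited start plus 1). Calculations ran in Python 3.11.15 with pandas 2.3.3 and scipy 1.17.1, and figures in matplotlib 3.10.9. The adjustment, the interval and the motif search were tested on simulated data. Alternatives were other adjustments, thresholds, pseudocounts and scalings.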

Additional observations from a re-analysis of the deposited data

How the results depend on the processing

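The call of Il7r depended on the set of genes over which p was adjusted. Over every listed gene 0 receptor genes passed, and the adjusted p of Il7r was 0.0727. Over the 10863 tested genes whose mean reached 1 FPKM it was 0.0350. At an adjusted p below 0.01 there were 0 calls among the receptor genes and 0 over all genes, since the smallest deposited adjusted p is 0.0181. The other counts over all genes were 32 to 41 beside 40, and 0 pathway genes passed in any of these settings. Pseudocounts of 1 and 5, quantile normalization, centring on the tested genes and centring on the T cell markers, the last chosen after seeing the data, kept the direction of 34 of 35 log2 fold changes. The exception was Il2rb, which went from -0.03 to 0.051 when the T cell markers were set to 0. Il7r ranged from 0.63 to 0.77 and Il9r from 0.36 to 0.48. No paired analysis was possible because the table holds 1 value per genotype, and no library could be left out for the same reason.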

Other observations

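Below the receptors, the adaptors and kinases that lead to the MAPK and PI3K pathways had nearly equal values in both genotypes. Of 11 tested genes 7 were higher and 4 lower in Etv5 cKO (median log2 change 0.04), with 0 passing the Cuffdiff test or an unadjusted p of 0.05. Grb2, an adaptor that links receptors to RAS, stood at 111 and 116 FPKM in WT and cKO in the authors' deposited table, and Shc1, which recruits it, at 46.9 and 47.2 FPKM. Pik3cd, the PI3K catalytic subunit of leukocytes, stood at 105 and 108 FPKM and Akt1, a kinase below it, at 71.9 and 75.3 FPKM. Irs2, an adaptor below the interleukin-4 receptor, was low at 1.31 and 1.66 FPKM, and Irs1 was not tested.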
